A study of Mus musculus with 20 samples.

Results

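The genes for the protein subunits of the mitochondrial respiratory chain and of ATP synthase were followed through 24 h of AICAR in mouse fibroblasts without AMPK. Members were the genes whose current symbol begins with Nduf and a subunit letter (a, b, c, s or v) with a number, is Sdha, Sdhb, Sdhc or Sdhd, or begins with Uqcr, with Cox and a number of the nuclear oxidase subunits, or with Atp5, plus Cyc1 and Cycs. Of 17097 genes with a probe set assigned to a single symbol, 81 were members, each read by its probe set of highest mean signal. Complex I had 32 of them, complex II 4, complex III with cytochrome c 9, complex IV 19 and complex V, the ATP synthase, 17. Cox7b, Uqcrh, Ndufs5, Ndufb1, Ndufb6, Ndufa13 and the 13 subunits of the mitochondrial genome were not analysed here. Ndufs5-ps carries a pseudogene name in the annotation, and whether its probe set also reads Ndufs5 was not tested.

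The cells were SV40-immortalized embryonic fibroblasts with the Ampkα1/α2 double knockout, which the controls carried too, so the AMPK catalytic subunits encoded by Prkaa1 and Prkaa2 were meant to be missing in every group. AICAR is a cell-permeable nucleoside that cells phosphorylate to ZMP, an AMP mimic used to activate AMPK. Affymetrix MG-430 PM arrays were hybridised with RNA of cells without AICAR, harvested at 0 h (3 arrays), or kept in 1 mM AICAR. Of the treated groups, 1, 2, 4, 12 and 24 h had 3 arrays and 8 h had 2, which makes 20 arrays in 7 groups. With controls at 0 h alone, the effect of AICAR and that of time in the dish cannot be told apart. Whether the replicates were separate cultures is not said in the labels, and a p-value here reflects the scatter of these arrays, which may be of technical origin.

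Complex I takes electrons from NADH and complex II takes them from succinate, both pass them to ubiquinone, and complex III passes them to cytochrome c, from which complex IV reduces oxygen. Complexes I, III and IV pump protons, and ATP synthase uses the proton gradient to make ATP. The chain is assembled from nuclear and mitochondrial gene products, and several complex IV subunits exist as a common form and a form found in muscle, lung or testis or induced by low oxygen.

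Values are log2 signal as deposited, and array medians lay between 5.16 and 5.32. Probe sets without a specific target, the nonspecific controls of the array, had a 95th percentile of 5.08, which serves here as the background level. In the control group 73 members lay between 9.43 and 12.91, and 3 (Cox7a1, Cox4i2 and Cox7b2) lay below the background level. Prkaa1 gave 7.92 to 8.36 and Prkaa2 5.42 to 6.98 over the 20 arrays. No unmodified cells were analysed here, and where these probes lie relative to the deletion is not known here, so they check nothing about the knockout. Of 12 fibroblast markers, Vim, S100a4, Sparc, Fn1 and P4hb were bright, while Col1a2 and Thy1 stayed below the background level in every group. The summed fibroblast signal, which the brightest markers carry, was 14.79 to 14.8 at 0 h and 14.7 to 14.73 at 24 h. Of the 11 fibroblast markers tested 0 were higher and 3 lower at 24 h by limma: Fn1 (-0.30, adjusted p = 0.00916), Pdgfrb (-0.25) and Thy1 (-0.22). The part of these falls in the results was not tested.

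In the fit reported here, on the probe set of highest mean, members passed the test for a change at 12 and 24 h and at no earlier time. Most of those changes were under 0.5 on the log2 scale. A member counted as changed when its adjusted p in limma, with Benjamini-Hochberg adjustment over all 12944 genes tested, was under 0.05, and 80 members passed the filter on low signal. Of these 80, 0 passed at 1 h, where 0.479% of all genes did, and 0 at 2 h, where 1.47% did. At 4 h 0 members passed against 12.1% of all genes, and at 8 h 0 against 10.3%. At an unadjusted limma p under 0.05 there were 1, 0, 3 and 5 members at 1, 2, 4 and 8 h, and the 95% interval of the difference lay within 0.5 of 0 on either side for 80, 80, 79 and 78 of all members tested. At 12 h 3 members were higher (14.8% of all genes were) and 3 lower (8.88% of all genes were), which is 7.5% of the members beside 23.7% of all genes. At 24 h 13 were higher (25.8% of all genes were) and 3 lower (14.6% of all genes were), which is 16 of the 80 members beside 40.4% of all genes. These counts include Cox7a1, which passed the filter on low signal through its 24 h mean alone. Among the 78 members whose control mean lay above the background level, 2 were higher and 3 lower at 12 h, 12 were higher and 3 lower at 24 h, and 15 were higher and 0 lower between 12 and 24 h. A single test for any difference among the 7 times gave 13 members, 16.2%, against 48.4% of all genes (limma moderated F test). In bulk RNA of this kind, fewer cells of a type and less RNA per cell cannot be told apart.

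Scaling of the arrays moved these counts. Quantile normalization gave 28 higher and 2 lower members at 24 h, with 44.3% of all genes past the test, and 3 higher and 5 lower at 12 h. Median centring gave 0 higher and 2 lower at 12 h. With array weights 38 members passed at 4 h, 34 of them lower, and 27 at 24 h. At 12 h the count fell to 3 without the control replicate 2 or the 12 h replicate 2, and to 2 without the control replicate 3 or the 12 h replicate 1.

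The differences were small beside those of other genes measured as precisely, though these were not matched to the members in signal. The 73 members of at least 9 in the controls had a median control signal of 11.3. Whether differences are compressed at such levels was not tested. At 24 h the median size of a member's difference, in either direction, was 0.094 on the log2 scale, while it was 0.184 over all genes tested and 0.188 over the 1689 genes with a mean signal of at least 10. The median standard error was 0.075 for members and 0.074 for those bright genes. These errors take in the 1 h replicate 3, an array whose highest value was 13.039 where every other array reached at least 13.383. Cox6a1, for example, read 12.54 on it, and 12.94 and 12.92 on the other 1 h arrays. This array was not left out alone at 24 h, so its part in the errors was not tested. Fitting the compared groups alone, which leaves it out, gave 15 members past the test at 24 h. The 95% interval of the 24 h difference lay within 0.5 of 0 on either side for 75 of the 80 members. The 5 others were Cox7a1, Cox7a2l, Ndufv3 and Sdha, which rose, and Cox8c, which had not passed and whose interval ran from -0.577 to 0.284.

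**Figure D1:**
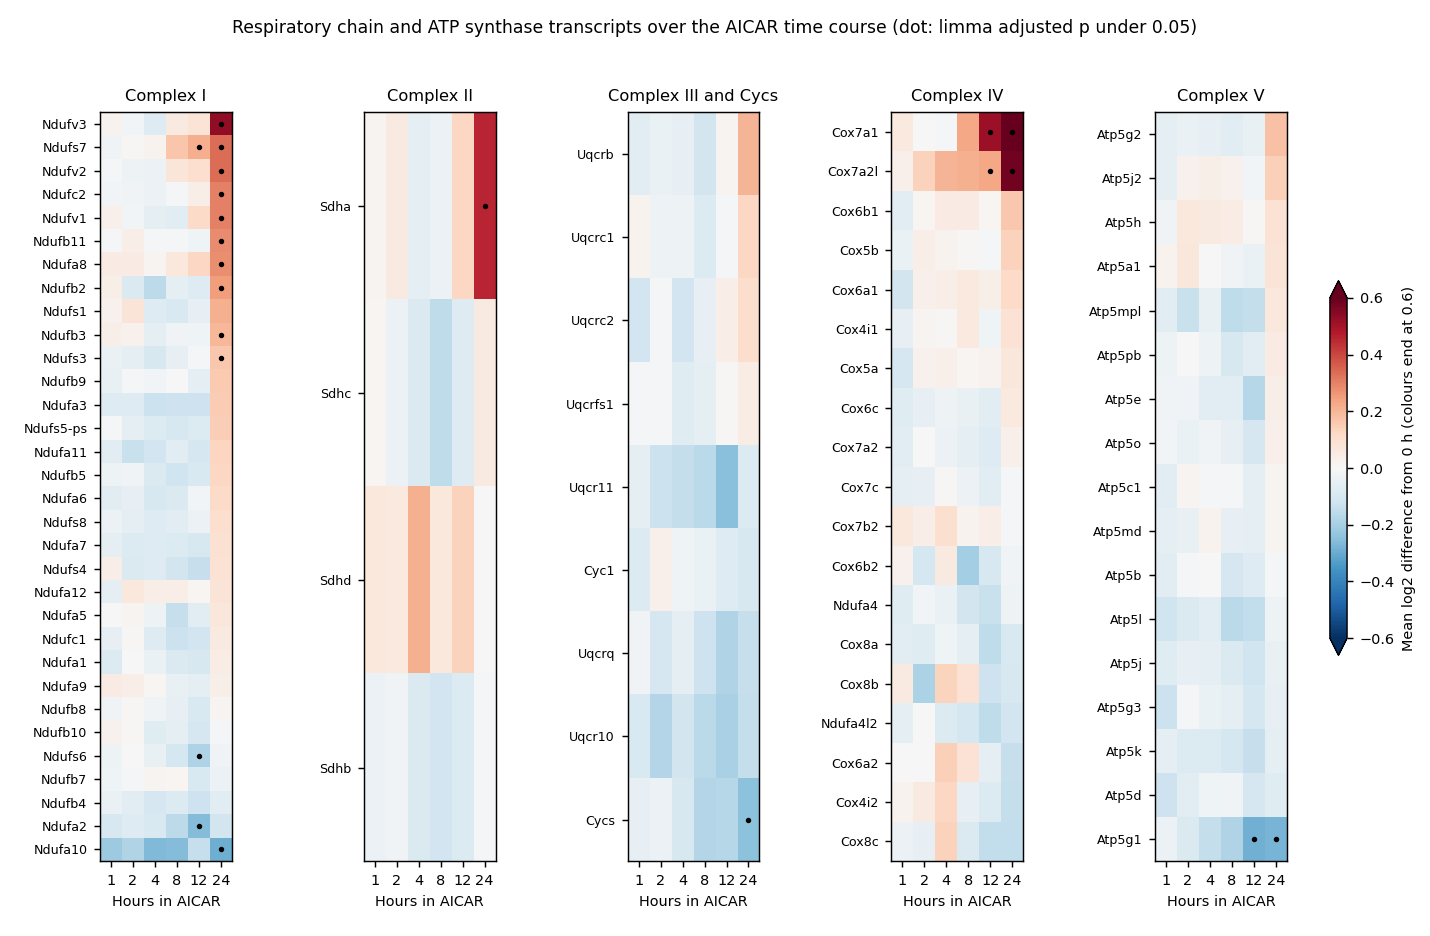
Mean log2 difference from the 0 h controls for all 81 members (rows, by complex) at each time in AICAR (columns, hours), with a dot where the limma adjusted p was under 0.05. Columns for 1 to 8 h have no dot, 6 dots stand at 12 h and 16 at 24 h, 11 of these in complex I. The colour scale ends at 0.6, below the 24 h value of Cox7a1, whose controls lay below the background level.

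From 1 to 12 h most members sat slightly below their controls in group mean, and by 24 h complex I had moved above. The median difference of the members was -0.037, -0.018, -0.038 and -0.056 at 1, 2, 4 and 8 h. It was -0.076 at 12 h, with 62 of 80 below 0, and 0.054 at 24 h, with 51 above 0. Over all genes it was 0.001 at 12 h and 0.010 at 24 h. Members read on the same arrays are not independent, so these counts of signs only describe. The median signal of the members on an array had an SD of 0.058 between replicates. It was 11.142 to 11.217 in the controls, and both the 12 h arrays (11.1 to 11.17) and the 24 h arrays (11.19 to 11.277) overlapped that range. At 1 h replicates 1 and 2 gave 11.182 and 11.215, inside the control range. Only the 1 h replicate 3, the array of lower highest value described above, lay below it, at 11.036. Between the 12 h and 24 h groups 16 members were higher and 0 lower (limma adjusted p under 0.05), beside 12.6% higher, 7.3% lower and 19.9% in all among the genes tested. This difference does not use the control means, but its error comes from the fit of all arrays, controls included. Fewer members passed when these groups were fitted alone, as given below. At an unadjusted limma p under 0.05 there were 26 higher and 0 lower. Of those 16, 12 belonged to complex I, and the others were Sdha, Cox7a1, Cox7a2l and Atp5g2. This count was 6 without the 12 h replicate 2 or the 24 h replicate 2, 8 without the 12 h replicate 3 and 9 without the 24 h replicate 1.

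Promoters of 5 members are printed because these genes are Cox7a1, which came above background at 24 h, Cox7a2l and Ndufv3, which had the largest rises among members above background in the controls, and Atp5g1 and Cycs, 2 of the 3 that fell, a choice made after their values were seen. Each is the 120 bases before the annotated start, from RefSeq on GRCm38.p6, in the direction of the gene. They lie at chr7:30184051-30184170 (plus strand), chr17:83514334-83514453 (minus strand), chr17:31519995-31520114 (plus strand), chr11:96075632-96075751 (minus strand) and chr6:50566570-50566689 (minus strand). Capitals mark matches, on either strand, to letters typical of factors known for respiratory genes: GCATGCG (NRF1), CCGGAAG (ETS factors such as GABP), AAGATGG (YY1), GGGCGG (Sp1) and TATAAA (the TATA box).
Cox7a1: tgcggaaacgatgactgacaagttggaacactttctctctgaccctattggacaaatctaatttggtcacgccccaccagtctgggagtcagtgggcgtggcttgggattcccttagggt
Cox7a2l: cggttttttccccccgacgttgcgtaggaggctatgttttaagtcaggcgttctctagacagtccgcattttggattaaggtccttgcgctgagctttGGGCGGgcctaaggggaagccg
Ndufv3: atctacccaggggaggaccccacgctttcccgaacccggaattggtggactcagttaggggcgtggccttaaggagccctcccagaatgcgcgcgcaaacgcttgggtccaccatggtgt
Atp5g1: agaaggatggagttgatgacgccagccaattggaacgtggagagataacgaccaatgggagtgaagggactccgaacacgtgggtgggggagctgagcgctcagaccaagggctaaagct
Cycs: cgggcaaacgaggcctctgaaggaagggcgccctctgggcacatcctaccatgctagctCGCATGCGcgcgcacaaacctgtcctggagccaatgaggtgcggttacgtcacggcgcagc
The Cycs window holds the NRF1 letters on both strands, overlapping, and the Cox7a2l window holds the Sp1 letters 22 bases before the start. Of 64 members with a RefSeq window of 250 bases before to 50 after the start, 12 (18.8%) held the NRF1 letters, beside 4.01% of 27025 genes. The ETS letters were in 15 (23.4%, all genes 9.93%) and the YY1 letters in 11 (17.2%, all genes 7.28%). For Sp1 the shares were 42.2% and 38.2%, and for the TATA box 12.5% and 15.7%. At least 1 of the NRF1, ETS and YY1 motifs was in 31 members (48.4%, all genes 19.3%). Of the 16 members that changed at 24 h, 4 had one: Cycs and Ndufa8 the NRF1 letters, Ndufs3 the ETS letters and Ndufs7 the YY1 letters. A match is a match of letters in this window, and no more.

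Complex I held 11 of the 16 changes at 24 h, 10 higher and 1 lower among 32 members, and its median difference was 0.119. That is 34.4% of complex I, beside 40.4% of all genes, so complex I held most of the members' changes while its share lay below that of all genes. The shares were 11.1% in complex III, 11.1% in complex IV and 5.88% in complex V. The per-array median over its members, relative to the control means, was -0.024 to 0.023 in the controls, -0.091 to -0.033 at 12 h and 0.095 to 0.153 on the 24 h arrays. The 24 h arrays lay above those of every other group, of which 1 h came nearest with 0.073. The number of complex I members that passed was 9 without the 7 arrays whose values had the narrowest interquartile range and 6 without the 24 h replicate 2.

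Among the core subunits, which carry the flavin and the iron-sulfur clusters, 4 of 6 rose at 24 h and 0 fell, where 25.8% of all genes rose. Ndufv1, the subunit that binds NADH and the flavin, read 11.15, 11.13 and 11.15 on the control arrays and 11.49, 11.46 and 11.39 at 24 h. The groups did not overlap, and the difference was 0.30 ± 0.06 (SE; limma adjusted p = 0.000742). Its partner in the same module, Ndufv2, went from 11.58, 11.60 and 11.56 to 11.95, 11.93 and 11.86, a rise of 0.33 ± 0.07. Ndufs7, whose cluster hands electrons to ubiquinone, was the only core subunit already higher at 12 h. It read 11.01, 11.01 and 10.93 in the controls, 11.23, 11.21 and 11.16 at 12 h and 11.40, 11.27 and 11.28 at 24 h. All 3 arrays at each of these times were above all controls, with 24 h differing by 0.33 ± 0.07 (limma adjusted p = 0.000479) and 12 h by 0.22 ± 0.07 (adjusted p = 0.0214). The 12 h call was lost without the control replicate 3, the 12 h replicate 1 or the 12 h replicate 2, and under median centring. Ndufs3, a core subunit of the arm in the matrix, rose by 0.16 ± 0.06 (limma adjusted p = 0.0441), and its call was lost without any of the 3 controls, or without the 24 h replicate 1 or 2. Ndufs1 differed by 0.21 (95% interval 0.019 to 0.404, limma adjusted p = 0.076) and Ndufs8 by 0.10 (-0.082 to 0.288), and both missed the test.

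Of the 26 accessory subunits, which surround the core, 6 rose and 1 fell at 24 h, 26.9% beside 40.4% of all genes. The largest rise was that of Ndufv3, the small subunit beside the NADH-binding module. It read 10.38, 10.38 and 10.37 in the controls, 10.47, 10.45 and 10.46 at 12 h, and 10.93, 10.87 and 10.92 at 24 h. The 24 h arrays stood apart from all others, at 0.53 ± 0.06 (SE) above 0 h (1.44-fold, limma adjusted p = 1.91e-06) and 0.45 above 12 h. Ndufc2, Ndufb11, Ndufb2 and Ndufb3 of the membrane arm rose by 0.30, 0.29, 0.25 and 0.20, and Ndufa8, on the intermembrane space side of that arm, by 0.28. These 5, like Ndufv1 and Ndufs3, lie beyond the 3 largest changes per complex and were named after their values were seen. Of them Ndufb11 passed without each array in turn, while Ndufb2 was lost without the control replicate 1 or the 24 h replicate 3, Ndufb3 without the control replicate 1 or 2 or any of the 24 h arrays, Ndufc2 without the control replicate 1 or the 24 h replicate 2, and Ndufa8 without the control replicate 2 or the 24 h replicate 2.

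Ndufa10, an accessory subunit of the membrane arm, was the 1 complex I member that fell at 24 h. It read 11.35, 11.36 and 11.34 in the controls, and 11.21, 11.02 and 10.96 at 24 h, a difference of -0.29 ± 0.09 (SE; limma adjusted p = 0.0184). Its arrays at 1, 2, 4 and 8 h already lay below the controls, between 10.98 and 11.25, but none of these times passed the test, and at 12 h it spanned 11.02 to 11.35. The 24 h call was lost without the 24 h replicate 2 or 3 and under quantile normalization or median centring. Ndufa2 and Ndufs6, accessory subunits of the arm in the matrix, passed as lower at 12 h and did not pass at 24 h. Ndufa2 differed by -0.26 ± 0.07 at 12 h (limma adjusted p = 0.0122; not past the test without the control replicate 2) and by -0.11 at 24 h, and its step between those times did not pass. Ndufs6 differed by -0.18 at 12 h (limma adjusted p = 0.0491) and lost that call without any 1 of the 6 arrays compared.

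Complex II changed in its flavoprotein alone among its 4 members by this test. Sdha, which oxidises succinate, read 10.62, 10.54 and 10.59 in the controls, 10.78, 10.61 and 10.74 at 12 h and 11.02, 11.09 and 11.01 at 24 h. The 24 h arrays lay above all others, by 0.46 ± 0.07 (SE) over 0 h (1.37-fold, limma adjusted p = 6.2e-05). The iron-sulfur subunit Sdhb differed by -0.01 (95% interval -0.157 to 0.134), and the membrane anchors Sdhc and Sdhd by 0.05 (-0.083 to 0.192) and 0.00 (-0.193 to 0.189). A second Sdha probe set above background, whose name marks it as shared between transcripts, differed by 0.05 at 24 h (limma adjusted p = 0.677), so the 2 Sdha probe sets did not give the same picture.

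In complex III and cytochrome c, 0 of 9 members rose and 1 fell at 24 h. Cycs, cytochrome c, read 11.97, 11.93 and 11.91 in the controls, 11.74, 11.76 and 11.82 at 12 h and 11.70, 11.71 and 11.68 at 24 h. Every array at 12 and 24 h was below every control, with -0.25 ± 0.07 (SE) at 24 h (limma adjusted p = 0.0122) and -0.17 at 12 h, which missed the test (adjusted p = 0.115). The tested probe sets of the 8 subunits of the complex itself had differences from -0.143 (Uqcr10) to 0.206 (Uqcrb) at 24 h. Uqcr10, a small subunit, had a pair of dimmer probe sets above background (control means 9.07 and 8.43) that differed by -0.66 and -0.93 at 24 h and by -0.29 and -0.41 at 12 h, so its probe sets did not give the same picture. Uqcrb, a small matrix-side subunit, read 11.17, 11.45 and 11.43 at 24 h and 11.14, 11.17 and 11.12 in the controls, so that 1 of its 24 h arrays lay among them. The catalytic subunits Cyc1 and Uqcrfs1, which carry heme and the Rieske cluster, differed by -0.09 and 0.04.

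**Figure D2:**
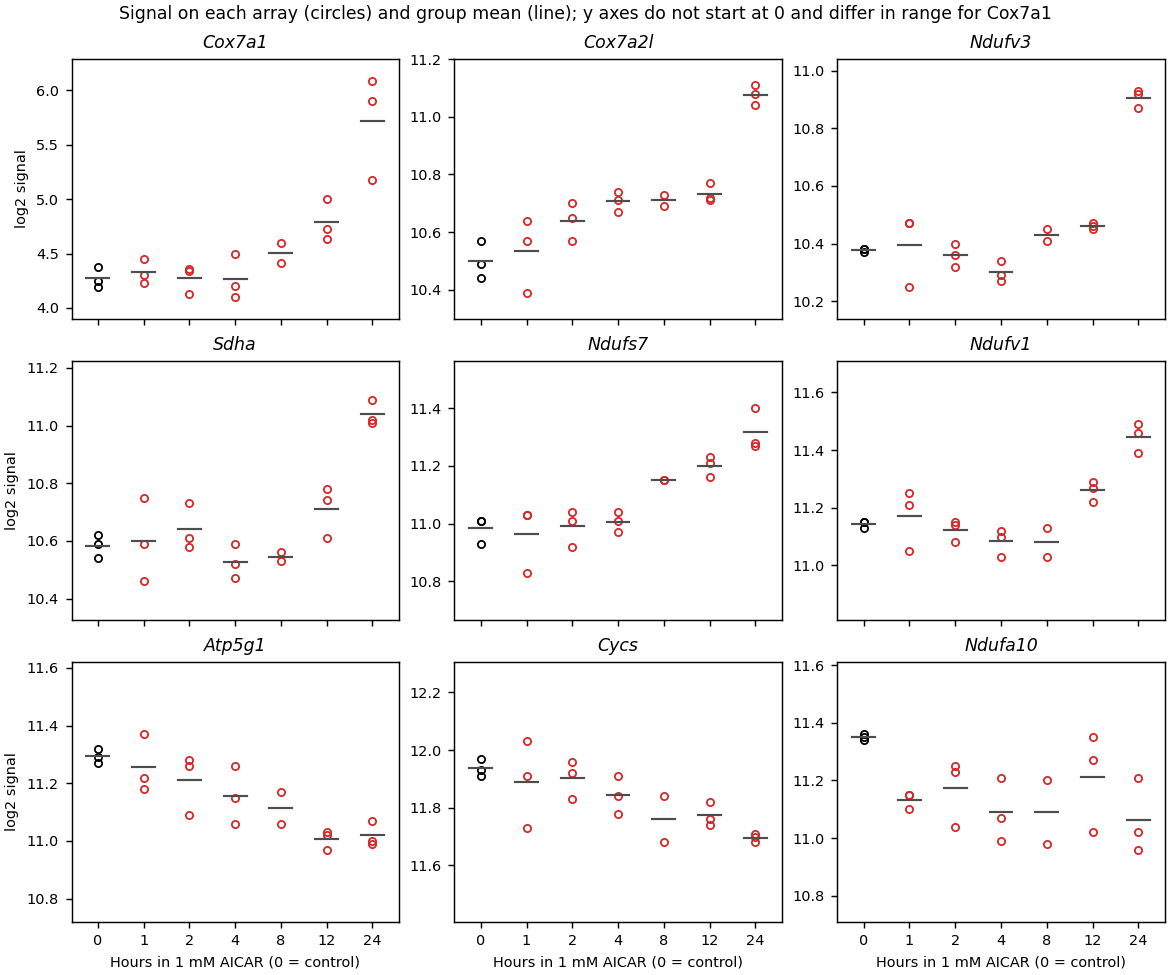
Log2 signal of 9 members on each array (circles) with group means (lines) against hours in 1 mM AICAR (0 is the control group). Cox7a1, Cox7a2l, Ndufv3, Sdha, Ndufs7 and Ndufv1 have all 24 h arrays above the controls, and Atp5g1, Cycs and Ndufa10 have all of them below. The axes do not start at 0, and that of Cox7a1 covers a wider range.

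In the fit reported here, complex IV divided into common forms that did not pass and 2 members that rose at 24 h, Cox7a2l and Cox7a1. This division depended on the setting. At 24 h quantile normalization added Cox5a, Cox5b, Cox6a1 and Cox6b1 to the members past the test. Array weights added Cox5b, Cox6a1 and Cox6b1, and trended robust variance added Cox6b1. Among the 10 common forms, which include Ndufa4, the differences at 24 h ran from -0.093 (Cox8a) to 0.162 (Cox6b1), with 0 of 10 past the limma test and each 95% interval within 0.5 of 0. Cox6b1 lay highest of them, at 12.22 to 12.25 in the controls and 12.39 to 12.41 on the 24 h arrays, without overlap (limma adjusted p = 0.0926). Cox4i1, Cox5a, Cox5b and Cox6a1 also had all 24 h arrays above all controls, and Cox8a had all of them below. Of all genes, 50% were without overlap at 24 h. Cox4i1, the largest nuclear-encoded subunit, differed by 0.09 (-0.091 to 0.260).

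Cox7a2l, a Cox7a homologue that links complexes III and IV into supercomplexes, lay above its controls from 4 h on. It read 10.57, 10.49 and 10.44 in the controls, 10.74, 10.71 and 10.67 at 4 h, and 10.73 and 10.69 at 8 h. The values at 4 and 8 h did not overlap the controls but missed the test (limma adjusted p = 0.0571 and 0.0839). At 12 h it read 10.77, 10.72 and 10.71, a rise of 0.23 ± 0.07 (SE; limma adjusted p = 0.0157) that was lost without the control replicate 3 or the 12 h replicate 1 and under median centring. At 24 h it read 11.08, 11.11 and 11.04, 0.58 ± 0.07 above 0 h (1.49-fold, limma adjusted p = 1.81e-06), and this rise passed under all 19 alternatives. All 3 of its probe sets rose alike at 24 h, by 0.58, 0.51 and 0.62.

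Cox7a1, the form of the same subunit known from heart and skeletal muscle, was below the background level in the controls and above it at 24 h. It read 4.25, 4.38 and 4.19 in the controls, 5.0, 4.73 and 4.63 at 12 h, and 5.90, 6.09 and 5.18 at 24 h. All arrays from 0 to 12 h lay below the background level of 5.08, so only a bound can be given: the 24 h mean of 5.72 stood at least 0.64 above that level on the log2 scale, which is at least 1.56-fold (limma adjusted p = 1.92e-06 for the measured means). One 24 h array, at 5.18, was close to the background level. At 12 h it also passed the test (limma adjusted p = 0.0351), but both groups compared could not be told from nonspecific signal, and the call was lost without any of the controls, without the 12 h replicate 1 or 2, and under quantile normalization or median centring. The common form, Cox7a2, read 12.13 to 12.20 in the controls and 12.17 to 12.21 at 24 h, and its difference was 0.03 (95% interval -0.129 to 0.190).

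Other tissue-restricted or inducible forms did not pass at any time. Their 24 h differences were -0.14 for Cox4i2 and Cox6a2, -0.02 for Cox6b2, -0.09 for Cox8b, -0.15 for Cox8c and -0.11 for Ndufa4l2, and their control means lay between 4.69 (Cox4i2) and 5.86 (Cox6a2) except for Cox8c (7.19). Cox7b2 read 3.66 to 4.01 on all 20 arrays and was removed by the low-signal filter. Markers of striated muscle were read beside Cox7a1. Of 10 on the array 3 (Actc1, Tnnt3 and Myh7) were below the background level in every group, the summed signal was 9.44 to 9.50 at 0 h and 9.35 to 9.42 at 24 h, and of the 9 tested 1 passed at 24 h, Acta1, which fell by 0.45 (limma adjusted p = 0.000928). Among adipocyte markers 5 of 7, Ucp1, Cidea, Adipoq, Fabp4 and Lep, were below the background level in every group, and the summed signal was 8.08 to 8.14 at 0 h and 8.07 to 8.13 at 24 h.

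Complex V had 1 change among 17 members, in a gene for its rotating c ring. Atp5g1, Atp5g2 and Atp5g3 encode the same mature c subunit with different import sequences. Atp5g1 read 11.27, 11.32 and 11.29 in the controls, 11.02, 10.97 and 11.03 at 12 h, and from 10.99 to 11.07 at 24 h. Every late array was below every control, by -0.29 ± 0.07 (SE) at 12 h (limma adjusted p = 0.00661) and -0.28 ± 0.07 at 24 h (adjusted p = 0.00439). Averaging it with its second probe set, which lay at background (control mean 3.83), gave -0.06 at 24 h and ended both calls. Atp5g2 went the other way in value, from 11.68, 11.55 and 11.55 to 11.78, 11.77 and 11.76, a difference of 0.18 that missed limma's test against 0 h (adjusted p = 0.0714) and was past it between 12 and 24 h (0.22, adjusted p = 0.0465). Atp5g3 differed by -0.05 (95% interval -0.200 to 0.105). The 5 subunits of the catalytic F1 head differed by -0.072 to 0.078 at 24 h, the 4 of the peripheral stalk by -0.044 to 0.086 and the 5 other membrane subunits by -0.055 to 0.142, with 0 of these 14 past the limma test.

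**Figure D3:**
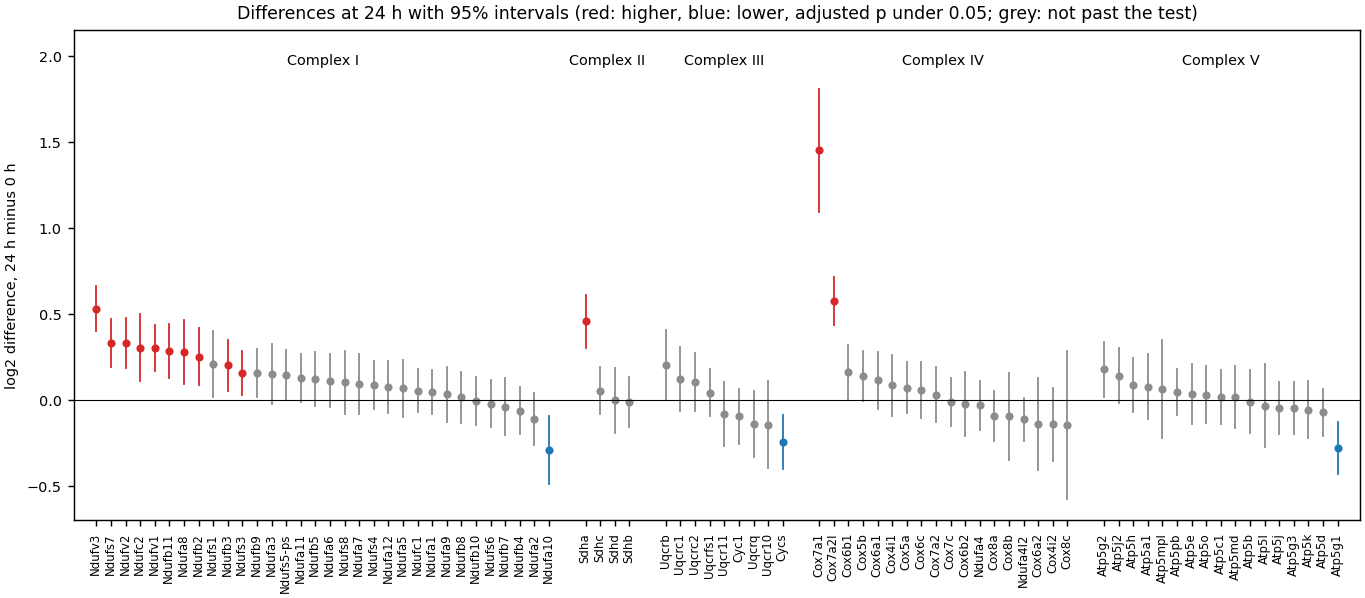
Log2 difference between 24 h and 0 h with its 95% interval (bars) for the 80 members tested, ordered within each complex, with red for higher and blue for lower at a limma adjusted p under 0.05. Complex I has 10 red members and 1 blue, while complex V has 1 blue and no red. Cox7a1 is drawn at its measured difference, from controls below the background level.

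Where a changed member had further probe sets above background, they moved the same way in sign. There were 12 such probe sets for 9 of the 16 members, all 12 with the sign of the tested one at 24 h. For Ndufv1, Ndufv2, Ndufs7 and Ndufb2 the second probe set gave 0.23, 0.29, 0.32 and 0.25, and for Ndufb11 the other pair gave 0.28 and 0.19. Cycs had -0.42 in its second set and -0.10 in another near background, and Ndufa10 had -0.23 in a second set of low signal. Uqcr10, described with complex III, and Ndufb8 were the members not past the test that passed when all probe sets of a gene were averaged. Ndufb8, an accessory complex I subunit, had a tested probe set at 0.02 and a second, dimmer one (control mean 6.86) at 0.50 by 2 h, 0.86 at 8 h and 0.85 at 24 h, which was noted after its values were seen. Ndufs4 had a dim probe set whose control mean of 5.03 lay below the background level. It differed by 0.68, 1.06 and 0.55 at 1, 2 and 4 h and by -0.22 at 24 h. The tested Ndufs4 probe set differed by 0.04, -0.08 and -0.08 at 1, 2 and 4 h, so these did not give the same picture.

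**Figure D4:**
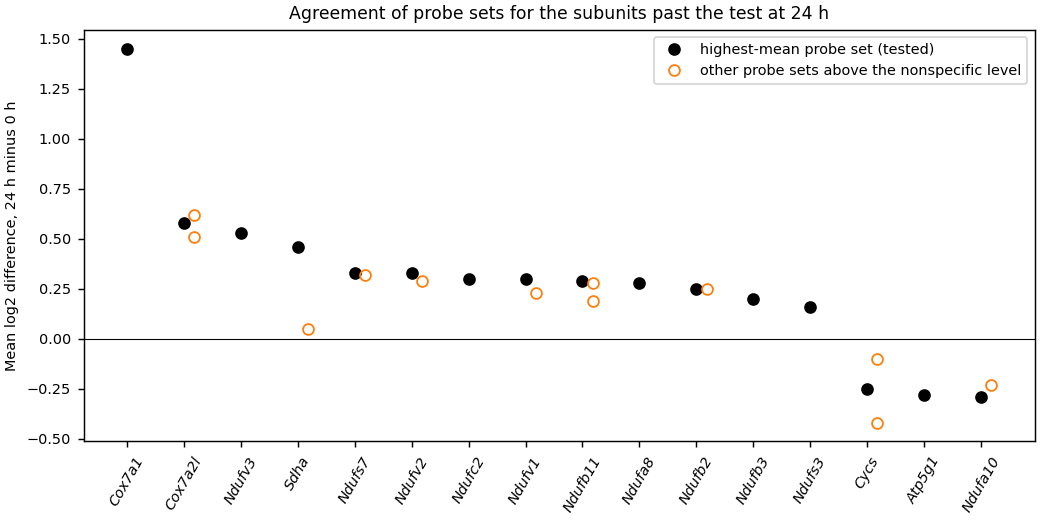
Mean log2 difference between 24 h and 0 h for the tested probe set (filled) and every other probe set above background (open) of the 16 members past the test. The open circles lie on the same side of 0 as the filled ones, with Sdha (0.46 and 0.05) the widest pair in proportion.

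Of the 80 members, 41 (51.2%) had 24 h arrays that did not overlap the controls, 32 above and 9 below, beside 50% of all genes. Of the 16 that passed, all 16 did, which is no separate check, because they were chosen by a test on the same arrays. Cox7a2l, Ndufb11, Ndufs7, Ndufv1, Ndufv2 and Ndufv3 passed at 24 h under each of the 19 alternative settings. Cox7a1, Sdha, Cycs and Atp5g1 failed in 1 setting each, which was the stricter filter for Cox7a1, the mean of all probe sets for Sdha and Atp5g1, and the stricter threshold for Cycs. Of the RNA integrity probes, the 3' minus 5' difference for actin was 0.383 to 0.458 in the controls and 0.503 to 0.557 at 24 h, without overlap. For Gapdh the 24 h values of 0.125 to 0.154 lay inside the control range of 0.077 to 0.228. The part of the actin shift in these results was not tested.

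Genes that build, supply or regulate the chain changed in both directions. Of 45 assembly factors tested, 12 were higher and 12 lower at 24 h, 53.3% beside 40.4% of all genes. The largest rises were Ndufaf1 (0.89 ± 0.10, SE) and Nubpl (0.72 ± 0.07), which build complex I, and Ttc19 (0.74 ± 0.14), which acts on complex III. The largest falls were Sdhaf1 (-1.07 ± 0.13), which helps Sdhb receive its clusters, Ndufaf4 (-0.90 ± 0.09), another complex I factor, and Sco1 (-0.78 ± 0.13), which brings copper to complex IV. Factors for the same complex thus stood on both sides, Ndufaf1 at limma adjusted p = 9.03e-07 and Ndufaf4 at 2.65e-07.

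Of 23 regulators of biogenesis and mitochondrial DNA expression, 5 rose and 6 fell at 24 h, 47.8% beside 40.4% of all genes. Tefm (0.51), Mterf2 (0.44) and Ssbp1 (0.33), which act in mitochondrial transcription and DNA maintenance, rose most. Tfb2m (-0.77), Twnk (-0.73) and Tfb1m (-0.44), the transcription initiation factor, the helicase and the ribosomal RNA methylase of mitochondria, fell most (limma adjusted p = 0.00222, 0.000254 and 0.0294). At 12 h Tfb1m was higher than its controls by 0.51 (limma adjusted p = 0.023), while Tfb2m differed by -0.05 and Twnk by -0.5 (adjusted p = 0.905 and 0.0109). The factors whose letters were counted in the promoters were read on the same arrays: Nrf1 differed by -0.30 at 24 h (limma adjusted p = 0.11) and Yy1 rose by 0.21 (adjusted p = 0.0169). Sp1 differed by 0.18 at 24 h (limma adjusted p = 0.0522) and rose by 0.53 at 4 h (adjusted p = 0.000118). Of GABP, the DNA-binding subunit Gabpa differed by -0.02 at 24 h (limma adjusted p = 0.888), while its partner Gabpb1 fell by 0.85 at 12 h (adjusted p = 0.000212) and differed by -0.33 at 24 h (adjusted p = 0.065). Nrf1 fell by 0.42 at 12 h (limma adjusted p = 0.0383). The values of Sp1 and Gabpb1 and those before 24 h were added after they were seen. Of 72 mitochondrial ribosomal proteins, which translate the mitochondrial subunits, 8 rose and 28 fell (50%), with a median of -0.124. Mrpl17 (-1.26), Mrpl34 (-0.73) and Mrps11 (-0.67) fell most, and Mrpl14 (0.48), Mrpl27 (0.38) and Mrpl48 (0.33) rose most.

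Enzymes that bring electrons to ubiquinone by other routes than complexes I and II stood on both sides. Of 19 carriers and entry enzymes, 5 rose and 5 fell at 24 h (52.6%). The rises were led by Sqor (0.93 ± 0.13, SE), the sulfide oxidase, Etfdh (0.84 ± 0.09), which passes electrons from fatty acid oxidation to ubiquinone, and its partner Etfa (0.48 ± 0.07). Prodh (-0.59), the proline oxidase and another such route, Aifm1 (-0.31), an import and assembly flavoprotein, and Slc25a1 (-0.26), the citrate carrier, fell most. Gpd2, of the glycerol phosphate shuttle, and Dhodh, of pyrimidine synthesis, which also feed ubiquinone, differed by 0.02 and -0.17 and did not pass limma's test. Of 22 genes of the citric acid cycle and pyruvate dehydrogenase, 4 rose, led by Pdk1 (0.93, limma adjusted p = 0.000211), a kinase that inhibits pyruvate dehydrogenase, Pcx (0.45) and Dlat (0.23), and 1, Dlst (-0.27), fell (22.7%). Of 10 genes of coenzyme Q synthesis 2 rose, Coq10a (0.60) and Coq10b (0.35), which bind coenzyme Q (20%). The lists differ in size and signal, and no test of one list against another was made.

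**Figure D5:**
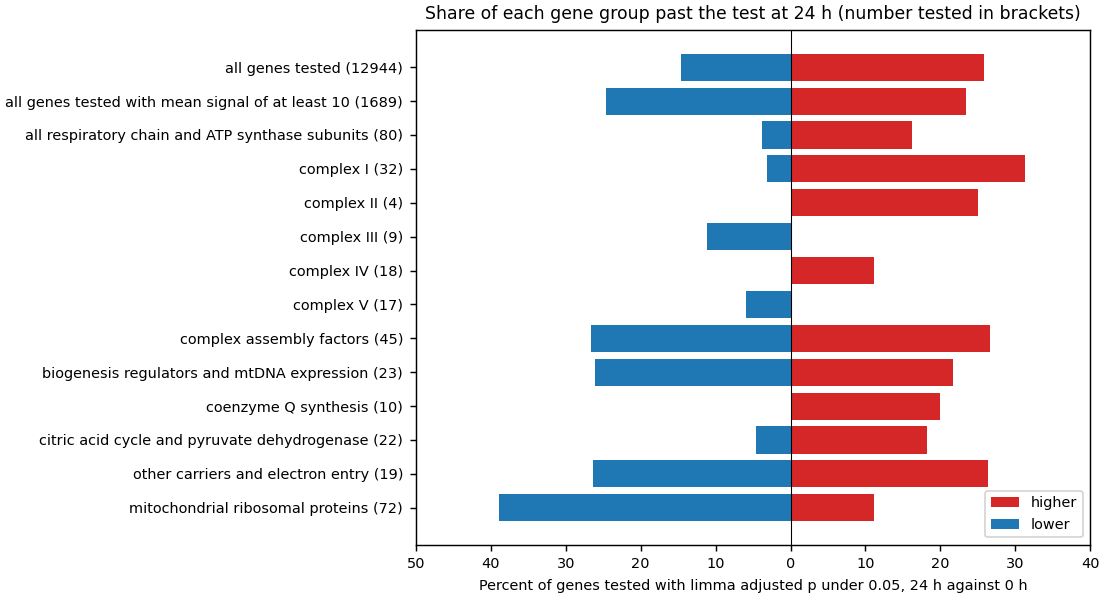
Percent of tested genes in each group that were higher (red, to the right) or lower (blue, to the left) at 24 h than at 0 h by a limma adjusted p under 0.05, with the number tested in brackets. The subunits show 13 higher and 3 lower of 80, the assembly factors 12 and 12 of 45 and the mitochondrial ribosomal proteins 8 and 28 of 72.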

How the data were processed

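Log2 signal was used as deposited: a table of 45141 probe sets on 20 arrays, its scale inferred from the values (the authors' background correction, summarisation and normalization: not given in the sources used here). Biotinylated cRNA was made from total RNA, per the labels' protocols. Control probe sets (104) and probe sets with several gene symbols (551) or none were left out, symbols were updated through the GRCm38.p6 gene table, and the probe set of highest mean stood for each of 17097 genes. Genes whose signal stayed at or below 4.81, the 40th percentile of the table, in each group's mean were removed, leaving 12944.

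All comparisons came from 1 fit over the 20 arrays in limma 3.58.1 (R 4.3.3; lmFit, eBayes, 13 residual degrees of freedom), two-sided, with Benjamini-Hochberg adjustment over all genes tested and a threshold of 0.05. Errors are standard errors of that fit. Figures used Python 3.11.15 and matplotlib 3.10.9. The fit was tested on simulated data. The number of arrays limits the precision.

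Members were grouped by complex and role. Named were the 3 largest rises and falls per complex at 12 and 24 h, members under the filter, the isoform sets and up to 3 genes per direction of each other list, with others as stated. The members and lists were chosen with earlier results of these data known. Cell type and pathway lists came from general knowledge.

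Alternatives were other normalizations, filters, probe set rules, variance models, array weights, a replicate block, a stricter threshold, smaller fits and leaving out arrays.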

Additional observations from a re-analysis of the deposited data

How the results depend on the processing

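Among recomputed counts of members past the test, 126 stayed within 1.5 times the count reported, 24 were above and 14 below, and no named member's call changed direction. The 126 include counts of 0 at 1, 2, 4 and 8 h, where the count reported was also 0. The counts at 1 and 2 h were 0 under every setting run. Quantile normalization gave 1 member at 4 h, 2 at 8 h, 30 at 24 h, 29 between 12 and 24 h and 29 in the F test. Array weights, whose estimation did not fully converge, gave 38 members at 4 h, 4 at 8 h, 16 past the test at 12 h, 27 at 24 h and 50 in the F test. Median centring gave 2 at 12 h. At 4 and 8 h, the interquartile range as a covariate gave 1 and 1, the mean of all probe sets 3 and 3, probe sets other than _x_ and _s_ 1 and 1, and trended robust variance 2 and 1 (21 in the F test). The 60th percentile filter gave 1 at 4 h. A threshold of 0.01 gave 1 at 12 h, 9 at 24 h, 6 between 12 and 24 h and 8 in the F test. Fitting the compared groups alone gave 5 between 12 and 24 h. Leaving out 1 array at a time gave 0 to 1 at 8 h, 2 to 6 at 12 h, 11 to 15 at 24 h, 6 to 15 between 12 and 24 h and 9 to 18 in the F test. The cause of these shifts was not tested. Leaving out the 7 arrays of narrow spread, chosen after seeing the data, gave 14 at 24 h.

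With the replicate number as a block, the counts were 2 for 4 h, 1 for 8 h, 7 for 12 h, then 19 at 24 h, 20 between 12 and 24 h and 21 in the F test. The numbers were not shown to pair the arrays: 12 of the 20 correlated best with their own number, and 39 of 57 same-numbered pairs correlated above 0.1 (median 0.325), beside 36 of 114 pairs of different number (median -0.166). All 6 arrays numbered 3 were among the 7 of narrow spread.

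With 2 or 3 arrays a group and a median standard error of 0.075, small differences between groups cannot be told from 0. Signal below about 5.08 cannot be told from nonspecific hybridisation.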

Other observations

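Subunits of other large complexes were read on the same arrays, by symbol pattern, for comparison with the respiratory chain. Of 36 proteasome genes tested 6 rose and 5 fell at 24 h (limma adjusted p under 0.05), 30.6% beside 40.4% of all genes. The largest rises were Psmb8 (1.92 ± 0.11, SE), Psmb9 (1.34 ± 0.13) and Psmb10 (0.50 ± 0.08), the catalytic subunits of the immunoproteasome. Those that fell were Psmd1 and Psmd7 (-0.43 each), Psmc3ip (-0.33), Psmd14 (-0.23) and Psmd6 (-0.20), of which Psmc3ip matches the pattern but is not a proteasome subunit. Of 71 genes with a cytosolic ribosomal protein symbol 1 rose, Rpl22l1 (0.29), and 6 fell (9.86%), with a median of -0.005. The falls included Rpl14 (-0.42), Rps15a (-0.46) and Rpl7l1 (-0.44), and also Rps6ka5 (-0.87), a kinase that the pattern takes in, Rps19bp1 (-0.42) and Rps27l (-0.25).

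Among markers of other cell types, the macrophage list had 5 of 8 genes below the background level in every group. Cd68, a lysosomal protein, went from a control mean of 4.77, below that level, to 5.85 at 24 h. The 24 h mean stood at least 0.77 above the background level on the log2 scale (limma adjusted p = 1.26e-06 for the measured means). This p-value does not test the bound, because the control mean cannot be told from nonspecific signal. The control mean of Cd68 also lay under the cutoff of the low-signal filter, which the gene passed through its treated groups alone. The summed macrophage signal was 8.02 to 8.08 at 0 h and 8.09 to 8.27 at 24 h. Of the epithelial list 4 of 8 genes were below the background level in every group. Krt19, with a control mean of 9.82, rose by 0.32 at 12 h (limma adjusted p = 0.00214) and lay 0.28 below its controls at 24 h. Of the endothelial list Kdr fell by 0.27 at 24 h.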
